A study of Mus musculus with 20 samples.

Results

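The macrophage genes described here are 30 mouse genes chosen by name as markers and effectors of macrophages. All 30 were found by symbol among the 49585 gene IDs of the count table, and 29 passed the low-count filter; Marco did not. They were measured by RNA sequencing of total RNA in 18 primary osteosarcomas, which are bone cancers. The mice had a mixed background of C57BL/6J and 129S/SvJae. The tumours came from 6 p53R172H/+, 3 p53R245W/+ and 5 p53R270H/+ mice, which carry a missense allele of Trp53 beside a wild-type one, and from 4 p53+/- mice, which carry a single wild-type allele. These groups are called R172H, R245W, R270H and p53 het. A cell line grown from an osteosarcoma, labelled p53R245/O with loss of heterozygosity, gave 1 library with p53 siRNA and 1 control library. A line is grown without the stroma of a tumour, and these 2 libraries come from 1 line. The labels give neither the age nor the sex of the mice, nor the state of the wild-type allele in a tumour. They do not say that each tumour came from a separate mouse, so p-values measure the spread between these samples. The comparisons set tumours with a mutant p53 against those with 1 missing allele, and the 3 mutants against each other.

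Macrophages are phagocytes that arise from embryonic precursors or from blood monocytes. Their survival depends on the growth factor receptor Csf1r, and their identity on the transcription factor PU.1, the product of Spi1. They clear dead cells, take up antibody-coated particles and lipids, and secrete complement C1q. In bone, osteoclasts, the multinucleated cells that resorb mineral, come from the same myeloid lineage and also carry Csf1r, PU.1 and Cd68.

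Promoters were searched for GAGGAA on both strands (the reverse strand reads TTCCTC), the core of the PU.1 box, since Spi1 is itself one of the 30 genes. The window was the 250 bases before to 50 bases after each gene start in RefSeq (GRCm38.p6). The letters were present in the promoters of 15 of the 23 macrophage genes in that table (65.2%), against 8446 of all 27025 genes in it (31.3%). Adgre1, C1qa, Cd14, Csf1r, Msr1, Spi1 and Tyrobp were not in the table. The E-box CACGTG was in 0 of the 23 (8.09% of all genes) and the AP-1 motif TGANTCA in 5 (21.7%, against 8.97% of all genes). Those 5 were Cd68, Cd84, Cybb, Gpnmb and Trem2. A match is a run of letters and does not show binding. The 3 promoters below belong to the macrophage genes with the highest mean level among those that hold GAGGAA, and the capitals mark GAGGAA or TTCCTC. They lie at chr7:19699139-19699438 (Apoe), chr11:69666121-69666420 (Cd68) and chr4:136886151-136886450 (C1qb), all on the minus strand. Each is printed in the direction of its gene.
Apoe promoter: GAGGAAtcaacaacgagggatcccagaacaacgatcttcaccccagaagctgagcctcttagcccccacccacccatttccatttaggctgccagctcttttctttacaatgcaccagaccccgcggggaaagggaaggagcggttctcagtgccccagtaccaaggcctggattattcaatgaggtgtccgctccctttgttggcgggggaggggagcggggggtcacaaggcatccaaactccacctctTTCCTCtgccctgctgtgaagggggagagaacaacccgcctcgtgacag
Cd68 promoter: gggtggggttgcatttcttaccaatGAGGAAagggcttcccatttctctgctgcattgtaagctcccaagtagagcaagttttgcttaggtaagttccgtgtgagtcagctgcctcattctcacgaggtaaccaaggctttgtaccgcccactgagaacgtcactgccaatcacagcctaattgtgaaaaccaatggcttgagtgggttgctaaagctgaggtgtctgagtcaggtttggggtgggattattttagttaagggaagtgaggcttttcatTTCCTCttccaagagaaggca
C1qb promoter: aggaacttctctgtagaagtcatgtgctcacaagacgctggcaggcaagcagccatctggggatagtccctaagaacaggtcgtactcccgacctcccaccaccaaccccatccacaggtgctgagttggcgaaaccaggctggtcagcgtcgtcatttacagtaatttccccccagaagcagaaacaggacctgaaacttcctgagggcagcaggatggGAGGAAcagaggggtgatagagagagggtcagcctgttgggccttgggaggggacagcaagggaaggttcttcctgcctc
With the gene's first base counted as 0, the runs began at -250 and 1 in Apoe, at -225 and 29 in Cd68 and at -30 in C1qb. The second run of Apoe and of Cd68 read TTCCTC in the direction of the gene.

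Library totals were 20.1 to 29.2 M counts (M, megacounts) in the tumours, 73.4 M in the siRNA library and 64.1 M in the control library of the line. Trp53 stood at 30.6 CPM (counts-per-million, a count divided by its library total) in the siRNA library and 94.9 CPM in the control library. Among tumours it stood at 36.3 to 71.3 CPM in R172H, 57.5 to 74.0 CPM in R245W, 26.5 to 53.2 CPM in R270H and 13.5 to 27 CPM in p53 het. Several libraries stood apart in osteoclast markers, a list of 12 genes with Acp5, Ctsk and Mmp9 among them. Their summed level was 754 CPM in R245W 2, 476 CPM in R270H 4 and 312 CPM in p53 het 4, and 1710 to 14400 CPM in the other tumours. The 11 libraries of R172H, R245W and p53 het 1 and 2 carry a serial number in their titles. The 7 libraries of R270H and p53 het 3 and 4 do not, and the R270H titles share a code of their own. Thus every R270H library has 1 kind of title and every R172H library the other, and only the 4 p53 het tumours, which hold both kinds, separate the kind of title from the mutation.

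Macrophage genes were abundant in every tumour. Of the 30 genes, 22 reached at least 10 CPM in all 18 tumours, 12 averaged at least 100 CPM, and 2, Vsig4 and Marco, stayed under 5 CPM in all of them. Per length, in RPKM (CPM per kilobase, over the merged exons), the highest tumour means belonged to Lyz2, the antibacterial lysozyme of myeloid cells, with 422 RPKM, and Apoe, a lipid carrier that macrophages secrete, with 401 RPKM. The complement genes C1qa, C1qb and C1qc averaged 249, 205 and 97.1 RPKM. Cd68, a lysosomal glycoprotein, averaged 201 RPKM, and the signalling adaptors Tyrobp and Fcer1g averaged 180 and 106 RPKM. Csf1r averaged 85.5 RPKM, Lgals3 (galectin-3) 59.3 RPKM and Laptm5, a lysosomal protein of blood cells, 44.5 RPKM. At the low end were Cd163 with 5.58, Ccr2 with 4.27, Trem2 with 4.16, Vsig4 with 0.514 and Marco with 0.105 RPKM. In bulk tissue, fewer macrophages and less RNA per macrophage cannot be told apart. Summed over the 30 genes, the level ran from 3680 to 5470 CPM in R172H and from 3260 to 3910 CPM in R245W. It ran from 2740 to 6070 CPM in R270H and from 3960 to 5370 CPM in p53 het. The R245W tumours thus lay just below the p53 het tumours, and all other pairs of genotypes overlapped. Between R245W and p53 het, 9.11% of all genes tested did not overlap.

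Among the lineage genes, Csf1r had a lowest, median and highest level of 462, 564 and 743 CPM in R172H tumours. It had 555, 204 and 731 CPM in R245W, 488, 506, 614, 110 and 459 CPM in R270H, and 515, 305, 660 and 206 CPM in p53 het. The R172H tumours were even, while R245W 2, R270H 4 and p53 het 4, the 3 libraries lowest in osteoclast markers, were the lowest in Csf1r. Spi1 ranged from 66.8 to 114 CPM around a median of 93.1 CPM in R172H tumours. Spi1 had 83.5, 29.9 and 66.5 CPM in R245W, 43.5, 35.8, 41.0, 12.5 and 46.9 CPM in R270H, and 77.7, 56.1, 91.4 and 20.8 CPM in p53 het. Every R270H tumour lay below every R172H tumour. Adgre1, which encodes the F4/80 antigen of mature mouse macrophages, ranged from 34.7 to 92.6 CPM with a median of 64.2 CPM in R172H. Its values were 48.6, 87.7 and 65.4 CPM in R245W, 144, 102, 54.6, 71.8 and 99.7 CPM in R270H, and 59.3, 79.0, 93.3 and 125 CPM in p53 het. All genotypes overlapped for Adgre1, and p53 het 4, among the lowest in Csf1r and Spi1, was the highest of its genotype. Ptprc, the CD45 phosphatase of all leukocytes, ranged from 83.4 to 272 CPM over the tumours. Laptm5 ranged from 48.2 to 321 CPM and Cd84, an adhesion receptor of leukocytes, from 30.7 to 120 CPM.

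Of the scavenger and phagocytic receptors, Cd68 had a lowest, median and highest level of 266, 420 and 501 CPM in R172H tumours. It had 335, 143 and 183 CPM in R245W, 168, 133, 189, 51.9 and 131 CPM in R270H, and 370, 154, 310 and 67.6 CPM in p53 het. No R270H tumour reached the lowest R172H tumour, while R245W and p53 het tumours lay on both sides. Trem2, a lipid receptor that signals through Tyrobp, ranged from 7.55 to 28.5 CPM with a median of 19.9 CPM in R172H. It had 15.9, 21.7 and 19.5 CPM in R245W, 32.0, 14.0, 20.2, 25.1 and 20.3 CPM in R270H, and 2.05, 36.7, 17.6 and 32.2 CPM in p53 het. The genotypes overlapped, and p53 het 1 was the lowest tumour. Marco, a receptor for bacteria and particles, was close to the limit of detection. It had at most 0.0798 CPM in R172H, 0.0891, 1.68 and 0 CPM in R245W, 0.284, 0.242, 0.187, 0.215 and 0.224 CPM in R270H, and 0.0394, 0.0736, 0.0439 and 0.308 CPM in p53 het. Its counts were 0 in R172H 2, R172H 6 and R245W 3, where 3 counts, the limit that a count of 0 allows, are 0.149, 0.126 and 0.125 CPM. Only R245W 2 exceeded 1 CPM. Mrc1, the mannose receptor, ranged from 33.5 to 238 CPM over the tumours, and Mertk, a receptor for dying cells, from 44.3 to 97.1 CPM. The scavenger receptor Msr1 ranged from 36.1 to 83.9 CPM, the haemoglobin receptor Cd163 from 16.4 to 78.4 CPM, and the endotoxin co-receptor Cd14 from 6.65 to 34.9 CPM. Vsig4, a complement receptor of resident macrophages, reached at most 2.69 CPM.

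The 3 C1q chains form the molecule that starts the classical complement pathway. C1qa had a lowest, median and highest level of 131.3, 250.5 and 377.4 CPM in R172H tumours. It had 155.02, 250.9 and 186.3 CPM in R245W, 460.7, 233.6, 182.2, 180.0 and 320.4 CPM in R270H, and 243.1, 445.7, 231.9 and 234.5 CPM in p53 het. Every genotype overlapped the others, and the highest tumours were R270H 1 and p53 het 2. C1qb ranged from 113.4 to 397.6 CPM and C1qc from 86.5 to 331 CPM over the tumours. The Fc receptors Fcgr1 and Fcgr3, which bind antibody, ranged from 5.26 to 48.0 CPM and from 19.9 to 104 CPM. Their shared adaptor Fcer1g ranged from 36.8 to 171 CPM, and Tyrobp from 47.1 to 279 CPM.

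Lyz2 had a lowest, median and highest level of 280, 549 and 749 CPM in R172H tumours. It had 470, 828 and 291 CPM in R245W, 865, 478, 444, 407 and 825 CPM in R270H, and 352, 507, 701 and 631 CPM in p53 het. All genotypes overlapped, and Lyz2 may share reads with its near-identical copy Lyz1. Cybb, the catalytic subunit of the phagocyte oxidase, ranged from 49.2 to 203 CPM, and Aif1, the actin-binding protein Iba1, from 5.51 to 38.6 CPM. Apoe ranged from 446 to 1520 CPM with a median of 796 CPM in R172H tumours. It had 167, 624 and 204 CPM in R245W, 1480, 835, 662, 583 and 944 CPM in R270H, and 821, 1520, 1120 and 1065 CPM in p53 het. All R245W tumours lay below all p53 het tumours, but R245W 2 lay among the R172H and R270H tumours. Gpnmb, a lysosomal glycoprotein of phagocytes that osteoblasts and osteoclasts also make, had a highest level 55.8 times its lowest, the widest span of the 28 genes above 0 in every tumour (Vsig4 and Marco were at 0 in some). It ranged from 7.62 to 52.3 CPM with a median of 43.3 CPM in R172H, and had 23.1, 73.3 and 26 CPM in R245W, 31.2, 10.1, 11.1, 126 and 7.12 CPM in R270H, and 4.65, 260, 11 and 21.0 CPM in p53 het. A single tumour, R270H 4 or p53 het 2, stood far above the rest of its genotype. Lgals3 ranged from 47.9 to 194 CPM.

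The chemokine receptors Cx3cr1 and Ccr2 mark, in mice, patrolling monocytes and many resident macrophages, and monocytes newly drawn from blood. Cx3cr1 ranged from 23.9 to 82.2 CPM with a median of 59.4 CPM in R172H tumours, and had 44.2, 37.2 and 57.2 CPM in R245W, 54.6, 43.6, 17.1, 26.3 and 58.5 CPM in R270H, and 39.0, 79.3, 75.5 and 47.1 CPM in p53 het. Ccr2 ranged from 4.82 to 54.7 CPM with a median of 24.8 CPM in R172H tumours, and had 18.9, 18.2 and 50.1 CPM in R245W, 37.1, 35.2, 9.98, 25.6 and 69.9 CPM in R270H, and 18.1, 21.5, 23.8 and 31.5 CPM in p53 het. The genotypes overlapped for both receptors, and the span of Ccr2 (14.5 times) exceeded that of Cx3cr1 (4.80 times). The annotation places 5 other protein-coding genes over Cx3cr1 and Hmgxb3, on the opposite strand, over Csf1r. Whether the reads were counted by strand is not given in the sources used here, so reads of genes on opposite strands may not be fully separated. Gorasp1, Csrnp1 and Xirp1 lie over Cx3cr1 on its own strand, where counting by strand would not separate them.

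**Figure D1:**
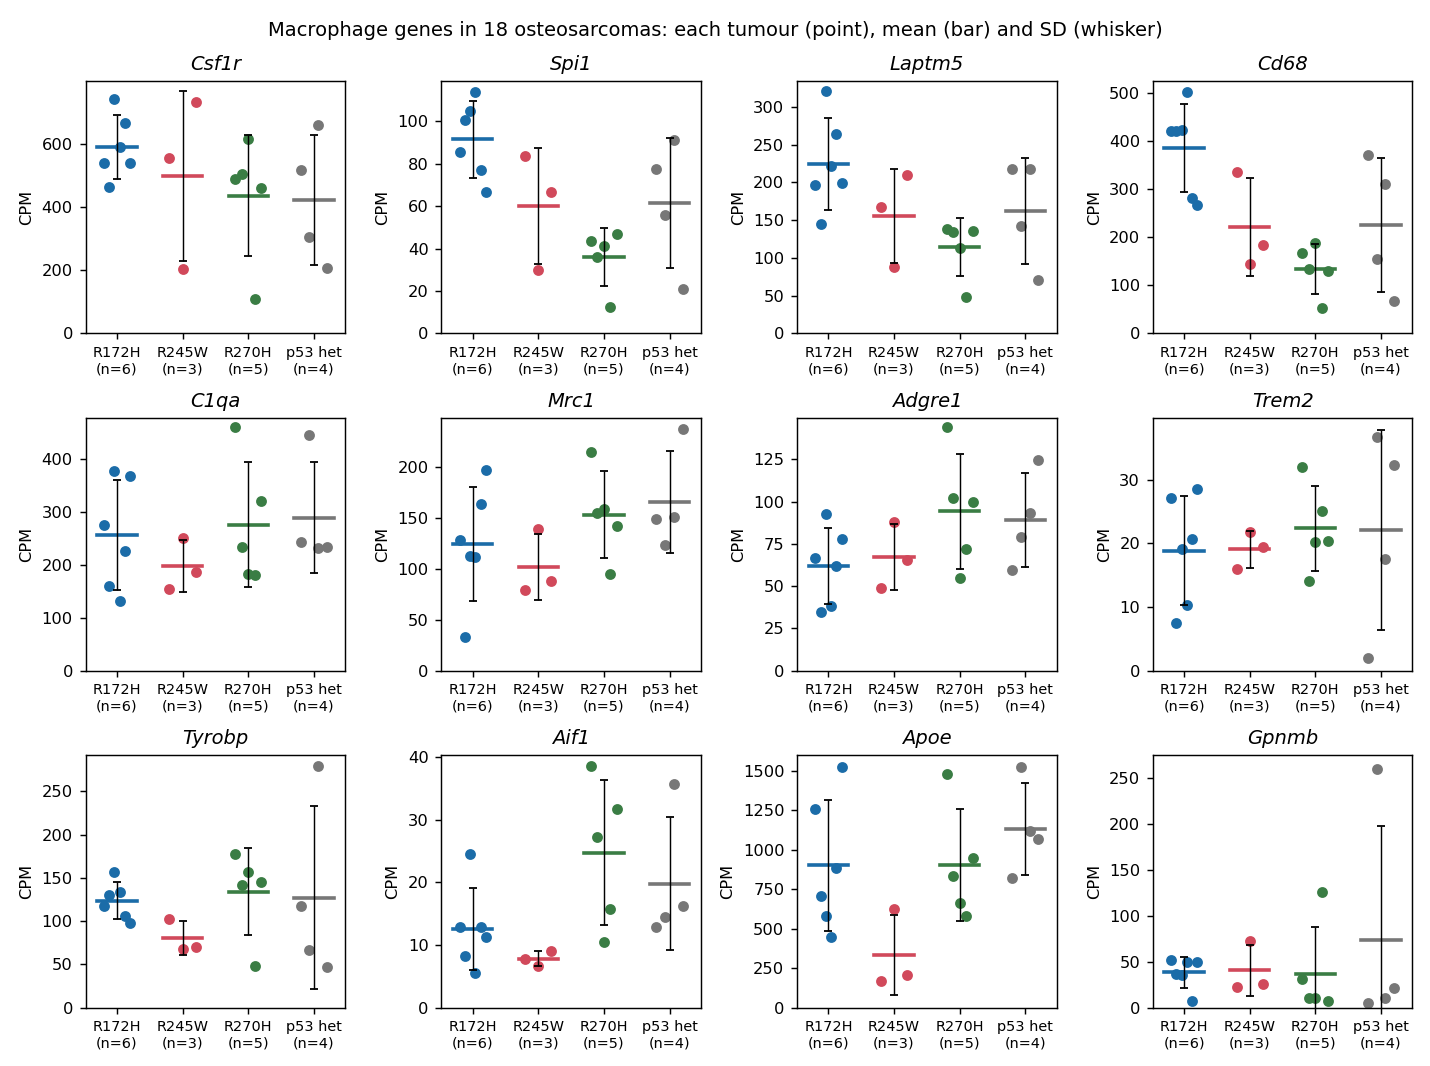
Level of 12 macrophage genes in CPM (vertical axes, linear) in each of the 18 tumours, by genotype (horizontal axes); points are tumours, bars are means and whiskers are SDs, cut off at 0. For Spi1 and Cd68 the R270H points lie below the R172H points, while for C1qa, Mrc1 and Trem2 the 4 genotypes overlap.

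Tumours of the same genotype differed from each other in macrophage genes. The SD of log2 CPM within genotypes had a median of 0.67 over the 29 genes tested, beside 0.51 over all 20616 genes tested and 0.38 over those above 5 CPM on average. Msr1 (0.39) and Mertk (0.43) varied least, and Gpnmb (1.66), Vsig4 (1.12), Trem2 (1.05) and Ccr2 (0.97) most.

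Against p53 het, none of the 29 macrophage genes passed edgeR's quasi-likelihood test, adjusted over all genes by Benjamini-Hochberg at 0.05, in any missense genotype. Few genes of any kind passed: 16 in R172H (0.0776%), 15 in R245W (0.0728%), 0 in R270H (0%) and 12 for the mean of the 3 missense genotypes (0.0582%). By unadjusted p under 0.05, R270H against p53 het had 1 macrophage gene, Spi1, beside 2364 of all genes (11.5%). DESeq2 called 0 macrophage genes there as well. Unadjusted p under 0.05 was met by 0 macrophage genes in R172H, by Apoe and Aif1 in R245W and by Apoe for the missense mean, beside 2527 (12.3%), 2577 (12.5%) and 2007 (9.74%) of all genes. DESeq2 called Apoe in R245W and none in R172H or the missense mean. Fitted log2 folds were nonetheless mostly below 0. They were so for 20 of 29 genes in R172H, 26 of 29 in R245W, 23 of 29 in R270H and 25 of 29 for the missense mean, beside 51.7%, 52.7%, 51.3% and 53.2% of all genes. The median log2 folds were -0.25, -0.25, -0.19 and -0.24, and over all genes -0.02, -0.04, -0.01 and -0.03. These contrasts share the 4 p53 het tumours and some of the genes vary together, so the directions are not separate observations. Over the alternatives the median log2 fold ran from -0.42 to -0.03 in R172H and from -0.48 to -0.16 in R245W. It ran from -0.37 to 0 in R270H and from -0.41 to -0.13 for the missense mean. The value of -0.03 in R172H was that without p53 het 2.

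In R172H against p53 het the lowest p-values belonged to Adgre1, Aif1 and Lgals3. Adgre1 averaged 62.0 ± 22.5 CPM in R172H and 89.1 ± 27.7 CPM in p53 het (SD, n = 6 and 4), a log2 fold of -0.62 ± 0.30 (SE, edgeR adjusted p = 0.421). Aif1 averaged 12.5 ± 6.54 CPM in R172H and 19.8 ± 10.6 CPM in p53 het, a log2 fold of -0.79 ± 0.39 (edgeR adjusted p = 0.429). Lgals3 averaged 84.5 ± 26 CPM in R172H and 121 ± 51.3 CPM in p53 het, a log2 fold of -0.63 ± 0.34 (edgeR adjusted p = 0.468). For all 3 genes the groups overlapped.

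In R245W against p53 het the lowest p-values belonged to Apoe, Aif1 and Mrc1, none of which passed. Apoe averaged 331.7 ± 253.9 CPM in R245W and 1130 ± 291 CPM in p53 het (SD, n = 3 and 4), a log2 fold of -1.86 ± 0.53 (SE, edgeR adjusted p = 0.202). Aif1 had 7.71, 6.65 and 9.06 CPM in R245W, against 12.8, 14.5, 35.6 and 16.3 CPM in p53 het, a log2 fold of -1.43 ± 0.49 (edgeR adjusted p = 0.258). The groups did not overlap in these 2 of 29 genes, as for 9.11% of all genes, so the count is not above the background. Without R245W 2, which had the highest Apoe of the 3 R245W tumours, the log2 fold of Apoe was -2.74, and it ran from -2.74 to -1.53 when single libraries were left out. DESeq2 gave Apoe an adjusted p of 0.0257, and over all settings tried it ranged from 0.0257 to 0.542. Mrc1 averaged 102 ± 32.4 CPM in R245W and 166 ± 49.8 CPM in p53 het, a log2 fold of -0.76 ± 0.44 (edgeR adjusted p = 0.499). Markers of several other cell types leaned to 1 side in the same comparison, with none passing and no marker at 0 in all tumours. Folds were below 0 for 11 of 11 T and NK cell markers, with a sum of 2.91 to 21.6 CPM in R245W and 13.8 to 68.0 CPM in p53 het. They were below 0 for 7 of 7 fibroblast markers, with sums that did not overlap, 743 to 2850 CPM in R245W and 3460 to 8400 CPM in p53 het. The 8 of 8 skeletal muscle markers below 0 had a sum of 75.3 to 1240 CPM in R245W and 230 to 6460 CPM in p53 het. Of 6 mast cell markers 5 were below 0, with a sum of 13.9 to 16.2 CPM in R245W and 11.1 to 38.8 CPM in p53 het. All 8 erythroid markers were above 0, with a sum of 133 to 722 CPM in R245W and 64 to 192 CPM in p53 het. The remaining lists leaned to 1 side or were split. Folds were below 0 for 6 of 7 B and plasma cell markers and 6 of 8 dendritic cell markers. They were so for 8 of 12 osteoclast and 8 of 11 osteoblast markers. Folds were above 0 for 7 of 9 neutrophil and 4 of 8 endothelial markers. The part of these cell types in the values of Apoe and Aif1 was not tested.

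In R270H against p53 het the lowest p-values were those of Spi1, with 36.0 ± 13.7 CPM in R270H and 61.5 ± 30.8 CPM in p53 het (SD, n = 5 and 4) and a log2 fold of -0.89 ± 0.40 (SE, edgeR adjusted p = 0.408), and of Cd68 and Cx3cr1. Cd68 averaged 134 ± 52.1 CPM in R270H and 226 ± 139 CPM in p53 het, a log2 fold of -0.85 ± 0.43 (edgeR adjusted p = 0.470). Cx3cr1 averaged 40.0 ± 17.9 CPM in R270H and 60.2 ± 20.2 CPM in p53 het, a log2 fold of -0.73 ± 0.40 (edgeR adjusted p = 0.503). The groups overlapped for each. For the missense mean against p53 het, the log2 folds were -0.92 ± 0.36 for Apoe (edgeR adjusted p = 0.405), -0.67 ± 0.34 for Aif1 (0.544) and -1.07 ± 0.61 for Vsig4 (0.592). Without p53 het 2 the last was -0.15, and without p53 het 3 that of Aif1 was -0.23.

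The mutants were also compared with each other. In R245W against R172H, 0 of 29 macrophage genes passed, beside 32 of all genes (0.155%). The log2 folds of lowest p were -1.41 ± 0.50 for Apoe (edgeR adjusted p = 0.312; -2.29 without R245W 2), -0.66 ± 0.35 for Cd163 (0.517) and -0.75 ± 0.47 for Cd68 (0.592). By unadjusted p under 0.05 there was 1 gene, Apoe, beside 10.8% of all genes, DESeq2 called 0, and limma voom called Apoe. In R245W against R270H, 0 of 29 passed, beside 255 of all genes (1.24%). Aif1 had 7.71, 6.65 and 9.06 CPM in R245W, below all R270H tumours with 38.6, 27.2, 10.5, 15.7 and 31.7 CPM, a log2 fold of -1.63 ± 0.48 (edgeR adjusted p = 0.0951). Apoe had a log2 fold of -1.40 ± 0.51 (edgeR adjusted p = 0.155; -2.28 without R245W 2), and Spi1 one of 0.73 ± 0.43 (0.385). By unadjusted p under 0.05 there were 2 genes, Aif1 and Apoe, beside 18.4% of all genes, and DESeq2 called Aif1. Groups without overlap, as for Aif1 here, made up 12.9% of all genes.

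R270H against R172H gave the only call. Cd68 fell to 134 ± 52.1 CPM in R270H, against 385 ± 92.3 CPM in R172H (SD, n = 5 and 6), a log2 fold of -1.45 ± 0.40 (SE, edgeR adjusted p = 0.0444). It was 1 of 29 macrophage genes, lower, while 1088 of all genes passed (5.28%), 385 of them lower (1.87%) and 703 higher (3.41%), so 1 member is near the background. By unadjusted p under 0.05 there were 5 macrophage genes, Cd68, Spi1, Laptm5 and Cd163 lower and Aif1 higher, beside 23.2% of all genes. The 5 R270H tumours did not overlap the 6 R172H tumours in Cd68, Spi1 and Laptm5, as for 6.72% of all genes. Spi1 averaged 36.0 ± 13.7 CPM in R270H and 91.5 ± 18 CPM in R172H, a log2 fold of -1.29 ± 0.37 (edgeR adjusted p = 0.0521). Laptm5 had 139, 135, 114, 48.2 and 136 CPM in R270H, against a lowest, median and highest level of 145, 210 and 321 CPM in R172H, a log2 fold of -0.94 ± 0.33 (edgeR adjusted p = 0.101). Over the 29 genes the folds went both ways, with 16 above and 13 below 0, beside 51.1% of all genes below 0, and a median of 0.04, beside -0.02 over all genes. Aif1 lay on the other side, with 24.7 ± 11.5 CPM in R270H and 12.5 ± 6.54 CPM in R172H, a log2 fold of 0.98 ± 0.37 (edgeR adjusted p = 0.124). The C1q chains had log2 folds close to 0 (0.27 ± 0.32 for C1qc, adjusted p = 0.645), and their genotypes overlapped. In a joint test of any difference between the 4 genotypes 0 of 29 genes passed, beside 590 of all genes (2.86%). Unadjusted p under 0.05 was met by Aif1, Cd68, Apoe and Spi1, beside 22.1% of all genes, and DESeq2 called Aif1, Cd68 and, outside the edgeR filter, Marco.

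The call for Cd68 was close to the threshold. Its adjusted p ran from 0.0196 to 0.0904 when single libraries were left out and passed in 7 of 18 such fits, with log2 folds from -1.69 to -1.25. With the kind of title as a covariate the log2 fold was -0.90 (adjusted p = 0.751), where p53 het alone holds both kinds within a genotype. Of 12 osteoclast markers, 11 had folds below 0 in R270H against R172H, beside 51.1% of all genes. Among them 1 passed, Nfatc1, the transcription factor that drives osteoclast formation (-1.71 ± 0.45, edgeR adjusted p = 0.0366), as it did in 10 of 18 fits that left out a library. With the kind of title as a covariate the log2 fold of Nfatc1 was -1.68 (adjusted p = 0.608). The sum of the 12 markers was 476 to 10600 CPM in R270H and 7460 to 13100 CPM in R172H, and no marker was at 0 in all tumours. Without R245W 2, R270H 4 and p53 het 4, the log2 fold of Cd68 was -1.24 (adjusted p = 0.0253) and that of Spi1 was -1.07 (0.0119). The part of osteoclasts in these values was not tested.

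**Figure D2:**
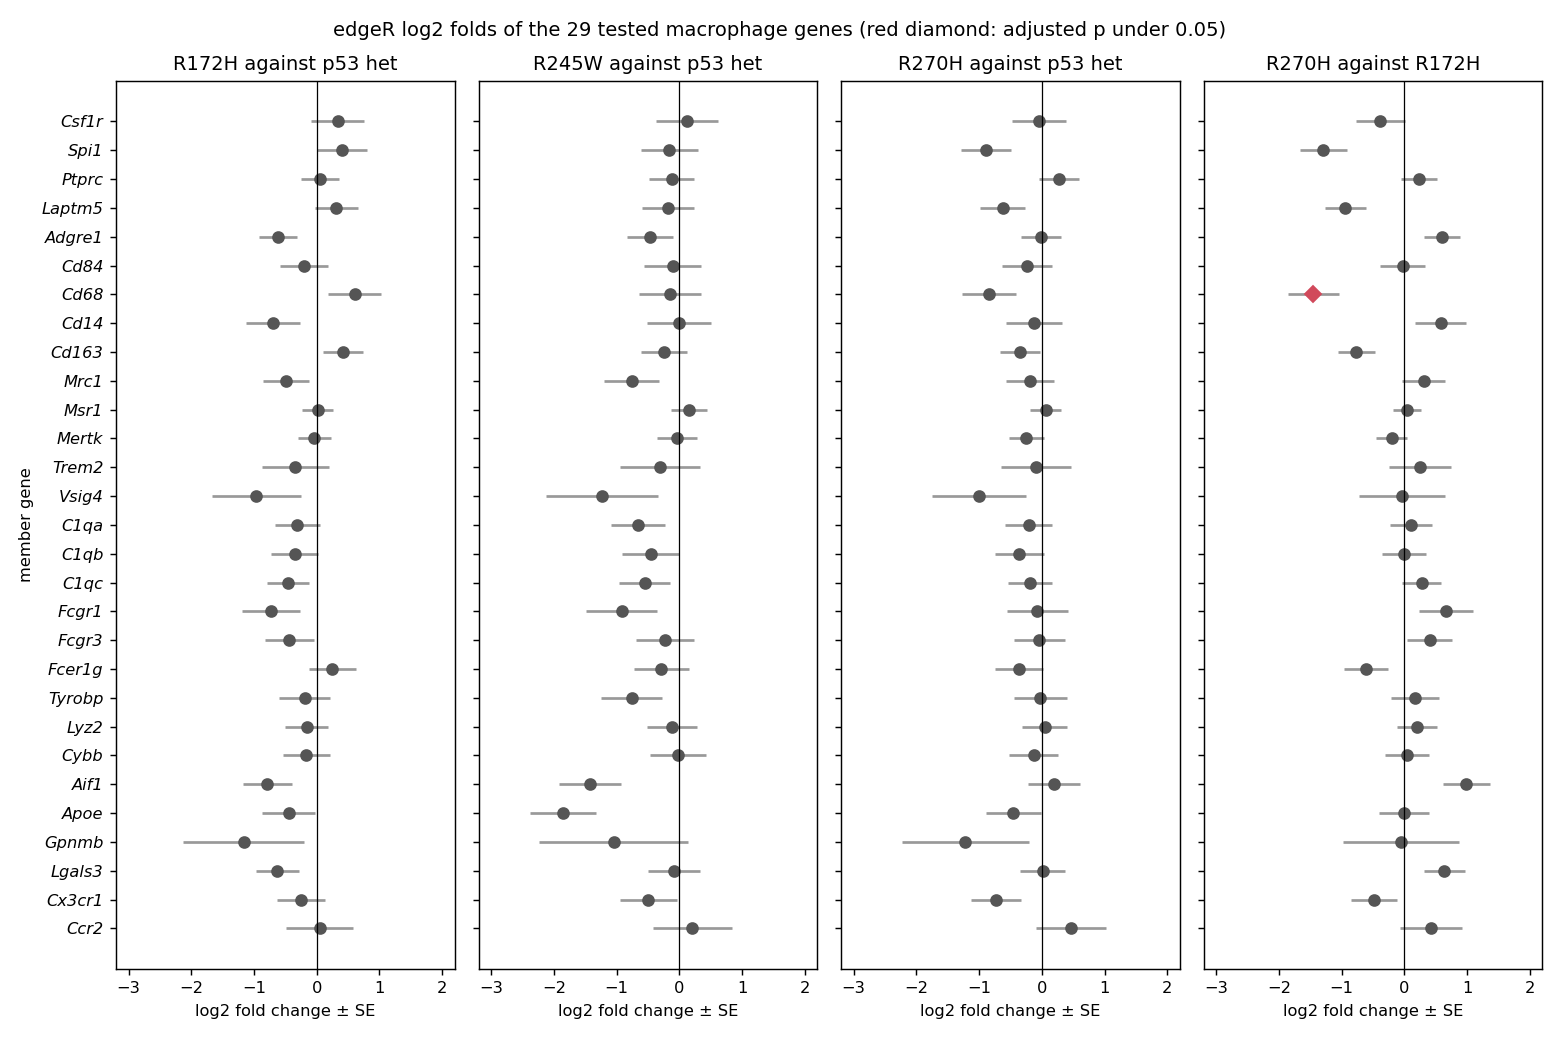
Fitted log2 fold changes (horizontal axes) of the 29 tested macrophage genes (rows) in 4 comparisons, with bars of 1 SE; red diamonds mark adjusted p under 0.05. Cd68 in R270H against R172H, at -1.45, is the single diamond, and in the comparisons with p53 het most points lie left of 0.

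Genes around macrophages were described from lists of related function, few of whose members passed. In R270H against R172H, where 5.28% of all genes passed, 1 call in a list of 7 to 14 genes is near the background. In R270H against R172H, 0 of 11 growth factors, attractants and ligands passed, where the chemokine Ccl7 had the lowest p (log2 fold 1.22 ± 0.51, edgeR adjusted p = 0.158). Of 14 Fc receptor and ITAM signalling genes 1 passed, Sirpa, the receptor of the "do not eat me" signal Cd47, at -0.90 ± 0.24 (adjusted p = 0.0410). None of 11 complement genes (C3, -0.96 ± 0.39, adjusted p = 0.149), 12 oxidase and lysosome genes (Lamp1, -1.91 ± 0.61, adjusted p = 0.0722) and 13 genes of inflammatory activation (Cxcl9, -1.61 ± 0.92, adjusted p = 0.310) passed. Timd4, a phosphatidylserine receptor of resident macrophages, was the 1 of 8 tissue-resident genes to pass, at -2.88 ± 0.65 (adjusted p = 0.0206). Arg1 passed among 10 genes of alternative activation, at 3.37 ± 0.72 (adjusted p = 0.0171), and Chil3 among 7 monocyte genes, at 3.62 ± 0.90 (adjusted p = 0.0294). No gene of these lists passed in the other contrasts. When single libraries were left out, Sirpa passed in 10 of 18 fits, Timd4 and Arg1 in 17 each and Chil3 in 13. With the kind of title as a covariate none of these 4 passed (adjusted p = 0.594, 0.492, 0.556 and 0.454). In limma voom Timd4 and Arg1 did not pass (adjusted p = 0.0513 and 0.0567), while Sirpa and Chil3 did. Sirpa did not pass with no low-count filter (adjusted p = 0.0667). In a fit of only R270H and R172H tumours, Timd4 was left out by the low-count filter. Arg1 was highest in R270H 4 with 39.9 CPM, where the other R270H tumours had 1.16 to 6.24 CPM and R172H tumours 0.582 to 1.25 CPM, and without R270H 4 its log2 fold was 1.71 (adjusted p = 0.0534). Chil3 was highest in R270H 5 with 95.4 CPM, where the other R270H tumours had 3.70 to 15.7 CPM and R172H tumours 0.298 to 4.46 CPM, and without R270H 5 its log2 fold was 2.17 (adjusted p = 0.115). Beside Arg1 and Chil3, which neutrophils and their precursors can also make, all 9 tested neutrophil markers had folds above 0, and S100a8, S100a9, Mmp8 and Ltf passed. Their sum was 19.5 to 1410 CPM in R270H and 9.34 to 57.3 CPM in R172H, with no marker at 0 in all tumours. All 8 erythroid markers had folds above 0 and 3 passed (Slc4a1, Klf1 and Epb42), with a sum of 51.9 to 1910 CPM in R270H and 56.7 to 458 CPM in R172H. A single library, R270H 5, held the highest sum of both lists, and the next R270H tumours had 168 CPM of neutrophil markers and 258 CPM of erythroid markers. Without R270H 5, 0 of 9 neutrophil and 0 of 8 erythroid markers passed, and 8 and 7 had folds above 0. Leaving out other single libraries gave 0 to 5 calls in each list. With the kind of title as a covariate, 0 of 9 neutrophil and 0 of 8 erythroid markers passed, all with folds above 0. With no low-count filter, and with only the groups compared, 4 neutrophil and 0 of 8 erythroid markers passed. Arg1 had 1.84 CPM in R270H 5, and R270H 4, the highest in Arg1, had a neutrophil marker sum of 90 CPM. The part of neutrophil and erythroid cells in Arg1 and Chil3 was not tested.

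Across the 18 tumours the macrophage genes did not vary as 1 block. Of 406 pairs of the 29 genes, 278 had a Spearman's rho above 0, 93 had one of at least 0.5 and 7 one of -0.5 or less, with a median of 0.17. All correlations were taken on log2 CPM. Those given with a p-value were tested with 100000 permutations, and the smallest p these can give is 1e-05. Among 12 named pairs, the C1q chains varied together most tightly: Pearson's r was 0.97 (rho 0.98) for C1qa with C1qb, 0.96 (rho 0.95) for C1qa with C1qc and 0.95 (rho 0.96) for C1qb with C1qc. Each had an adjusted permutation p of 4e-05 and a raw p at the smallest possible. Without the 2 tumours farthest from the median, r was 0.95, 0.95 and 0.93, and within both kinds of title it was at least 0.97. Csf1r with Csf1, the gene of its ligand, had r = 0.79 (rho 0.72; adjusted permutation p = 0.00084 and 0.00309). Without R270H 4 and p53 het 4 that r was 0.45 (adjusted permutation p = 0.177), so the relation rested on those tumours. Within titles with a serial number it was 0.53 (n = 11) and within the others 0.92 (n = 7). The other 8 pairs had adjusted permutation p-values of 0.0738 or more, among them Fcer1g with Tyrobp (r = 0.38, rho 0.27), Ptprc with Laptm5 (r = 0.50, rho 0.50), Cx3cr1 with Ccr2 (r = 0.41, rho 0.36) and Csf1r with Adgre1 (r = -0.19, rho -0.27).

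**Figure D3:**
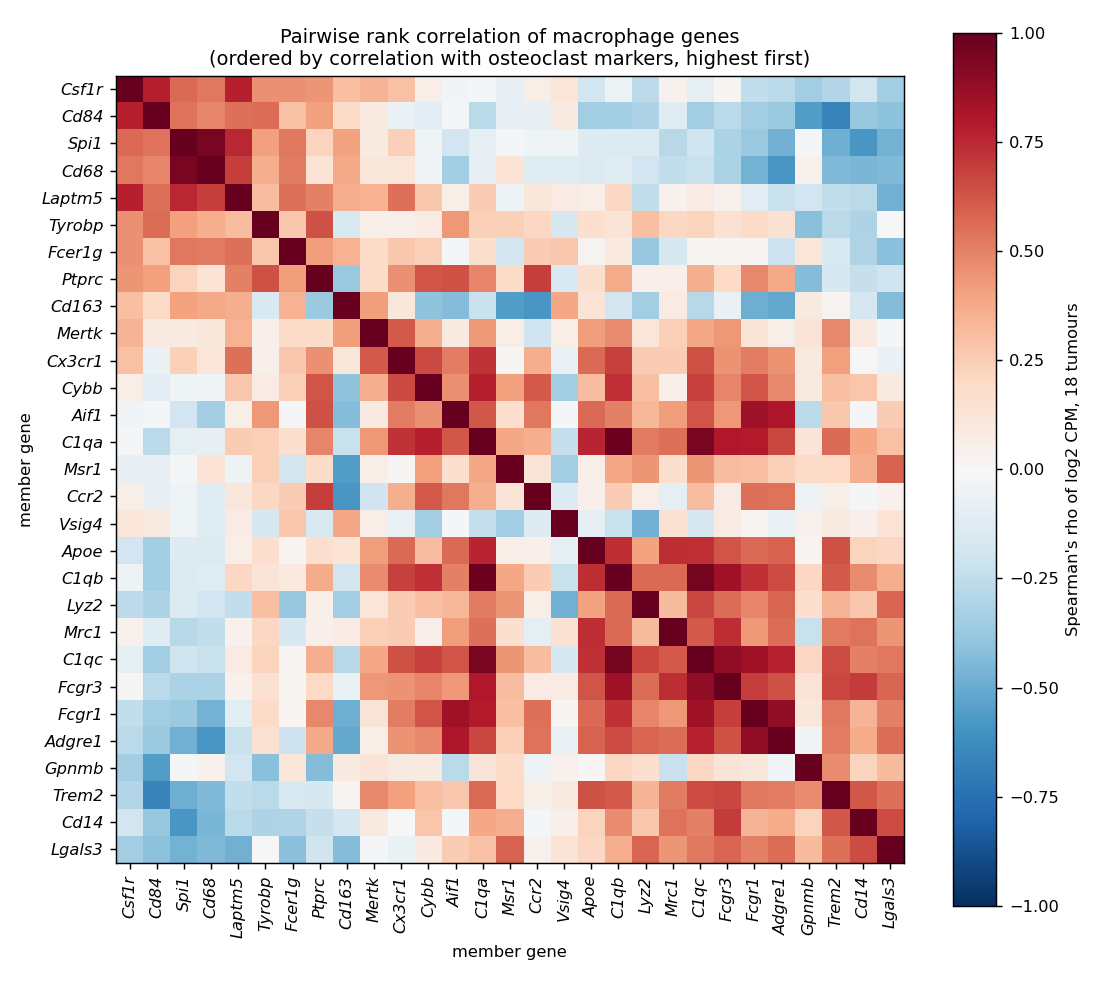
Spearman's rho of log2 CPM (colour scale from -1 to 1) for each pair of the 29 tested macrophage genes over 18 tumours, ordered by correlation with osteoclast markers. A block from Csf1r to Laptm5 lies at the top left and a block around C1qa to Adgre1 toward the lower right, and 278 of 406 pairs are above 0.

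Relations of every macrophage gene with C1qa and with the mean of the 12 osteoclast markers, 57 in all, were added after the data were seen. With osteoclast markers, r was at least 0.7 for 6 of 29 genes, beside 2.39% of all genes. These were Csf1r (r = 0.93, rho 0.74), Cd84 (0.89, rho 0.83), Spi1 (0.88, rho 0.86), Cd68 (0.87, rho 0.83), Laptm5 (0.86, rho 0.70) and Tyrobp (0.79, rho 0.58), with adjusted permutation p-values of 0.000114 to 0.000456 for r. Without the 2 tumours farthest from the median, R270H 4 and p53 het 4, r was 0.87, 0.85, 0.71, 0.67, 0.66 and 0.55 in the same order. Within titles with a serial number (n = 11) it was 0.86, 0.84, 0.91, 0.82, 0.73 and 0.73, and within the others (n = 7) 0.95, 0.98, 0.91, 0.94, 0.93 and 0.98. Without R245W 2 as well, r was 0.70, 0.73, 0.58, 0.71, 0.46 and 0.42, and the last 2 and Spi1 no longer passed. Fcer1g (r = 0.59, rho 0.40; adjusted permutation p = 0.0309) and Lgals3 (r = -0.58, rho -0.41; adjusted permutation p = 0.0339) passed for r alone. Without the 2 farthest tumours they had r = 0.12 and -0.47 and no longer passed, so the relation of Fcer1g rested on those tumours. Within titles with a serial number they had r = 0.11 and -0.71, and within the others 0.92 and -0.40.

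C1qa had almost no relation with osteoclast markers (r = -0.07, rho -0.25; adjusted permutation p = 0.830). Besides C1qb and C1qc, C1qa varied with Fcgr3 (r = 0.84, rho 0.80), Fcgr1 (0.83, rho 0.79), Cybb (0.76, rho 0.78), Adgre1 (0.75, rho 0.67), Cx3cr1 (0.74, rho 0.72) and Apoe (0.71, rho 0.76), with adjusted permutation p-values of 0.000114 to 0.00326 for r. These 8 of 28 genes had r of at least 0.7, beside 0.427% of all genes. Without R172H 4 and p53 het 2, the farthest from the median, the 6 had r of 0.77, 0.76, 0.67, 0.72, 0.62 and 0.65 in the same order. Within titles with a serial number r was 0.87, 0.89, 0.75, 0.89, 0.87 and 0.72, and within the others 0.81, 0.89, 0.86, 0.75, 0.57 and 0.83. Aif1 (r = 0.61), Mrc1 (r = 0.58) and Mertk (r = 0.57) also passed (adjusted permutation p = 0.0285, 0.0309 and 0.0402; rho 0.62, 0.55 and 0.43), and Mertk had r = 0.29 without the 2 farthest tumours, on which it rested. The commonly used macrophage markers ordered the tumours differently: rho was 0.53 for Cd68 with Csf1r and -0.58 for Cd68 with Adgre1.

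**Figure D4:**
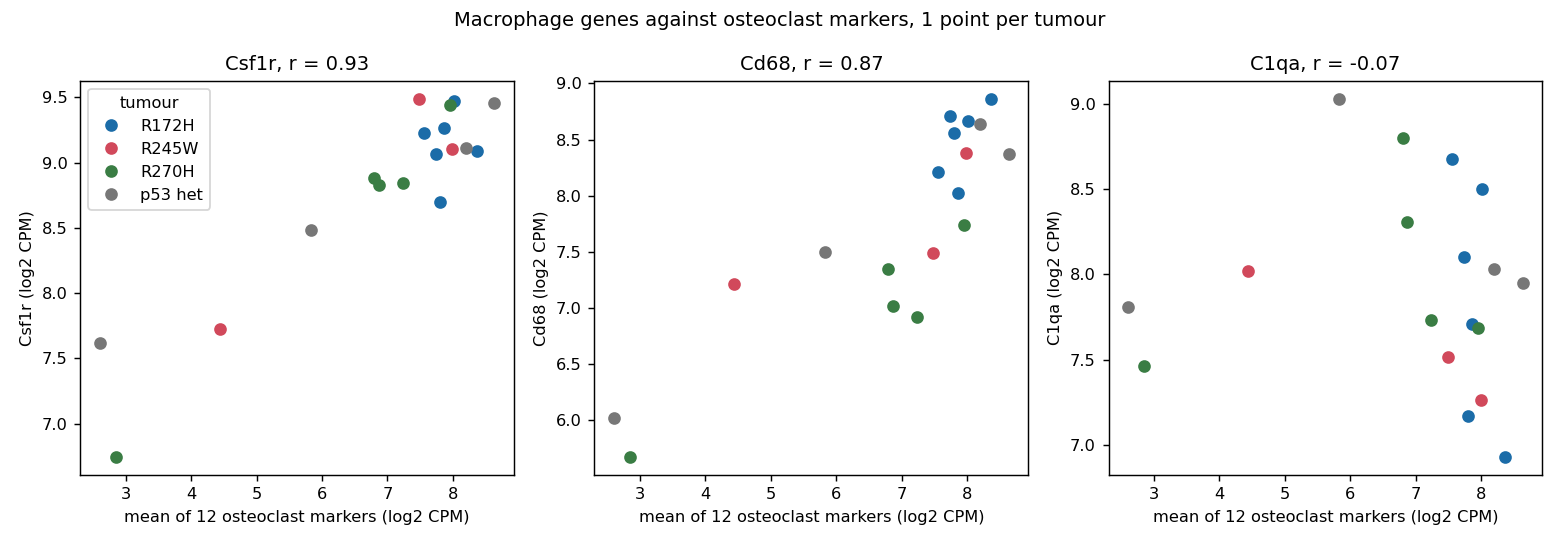
Log2 CPM of Csf1r, Cd68 and C1qa (vertical axes) against the mean log2 CPM of 12 osteoclast markers (horizontal axes), 1 point per tumour, coloured by genotype. Csf1r (r = 0.93) is lowest in the 3 tumours at the left, Cd68 (r = 0.87) is lowest in 2 of them, R270H 4 and p53 het 4, and C1qa (r = -0.07) is lowest in other tumours.

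The cell line measured what a culture without stroma holds. In the control library 24 of 28 macrophage genes with a tumour mean of at least 1 CPM lay below every tumour, beside 27.5% of 16040 such genes, and in the siRNA library also 24 (29.2% of all). C1qa had 26 counts and 0.354 CPM in the siRNA library (exact Poisson 95% interval 0.232 to 0.519, counting error only), and 12 counts and 0.187 CPM in the control library (0.0968 to 0.327). Its tumour median of 234 CPM was 1250 times the control level. The tumour median was 892 times the control level for C1qc, 805 times for C1qb, 285 times for Spi1 and 177 times for Csf1r. The gap was narrower for Lyz2 (23.9 times), Adgre1 (16.6 times) and Cd163 (7.29 times). Aif1 had 4 counts in the siRNA library and 1 count in the control library, Ccr2 had 1 count in the siRNA library and 3 in the control library, and Vsig4 had 0 in both. Marco, with 1.10 CPM in the siRNA library and 0.515 CPM in the control library, lay above all tumours but R245W 2 in both.

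A few macrophage genes were as high in the line as in tumours. Gpnmb had 248 CPM in the siRNA library and 271 CPM in the control library, where the tumour median was 28.6 CPM and only p53 het 2, with 260 CPM, came near. Lgals3 had 357 CPM in the siRNA library and 325 CPM in the control library, above the highest tumour (194 CPM). Being above every tumour held for these 2 of 28 genes in the control library, beside 22% of all genes, and with TMM scaling over all 20 libraries for 1 of them. Cd14, with 12.8 CPM in the siRNA library and 12.5 CPM in the control library, and Fcer1g, with 96.7 CPM in the siRNA library and 82.5 CPM in the control library, lay within the tumours' range. Between siRNA and control, 0 of 5 macrophage genes at 10 CPM or more differed by 2-fold on the log2 of CPM plus 1, beside 11 of 9398 genes (0.117%). The largest log2 ratio among those 5 was 0.23, for Fcer1g. With 1 library each, this comparison has no replicate check.

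**Figure D5:**
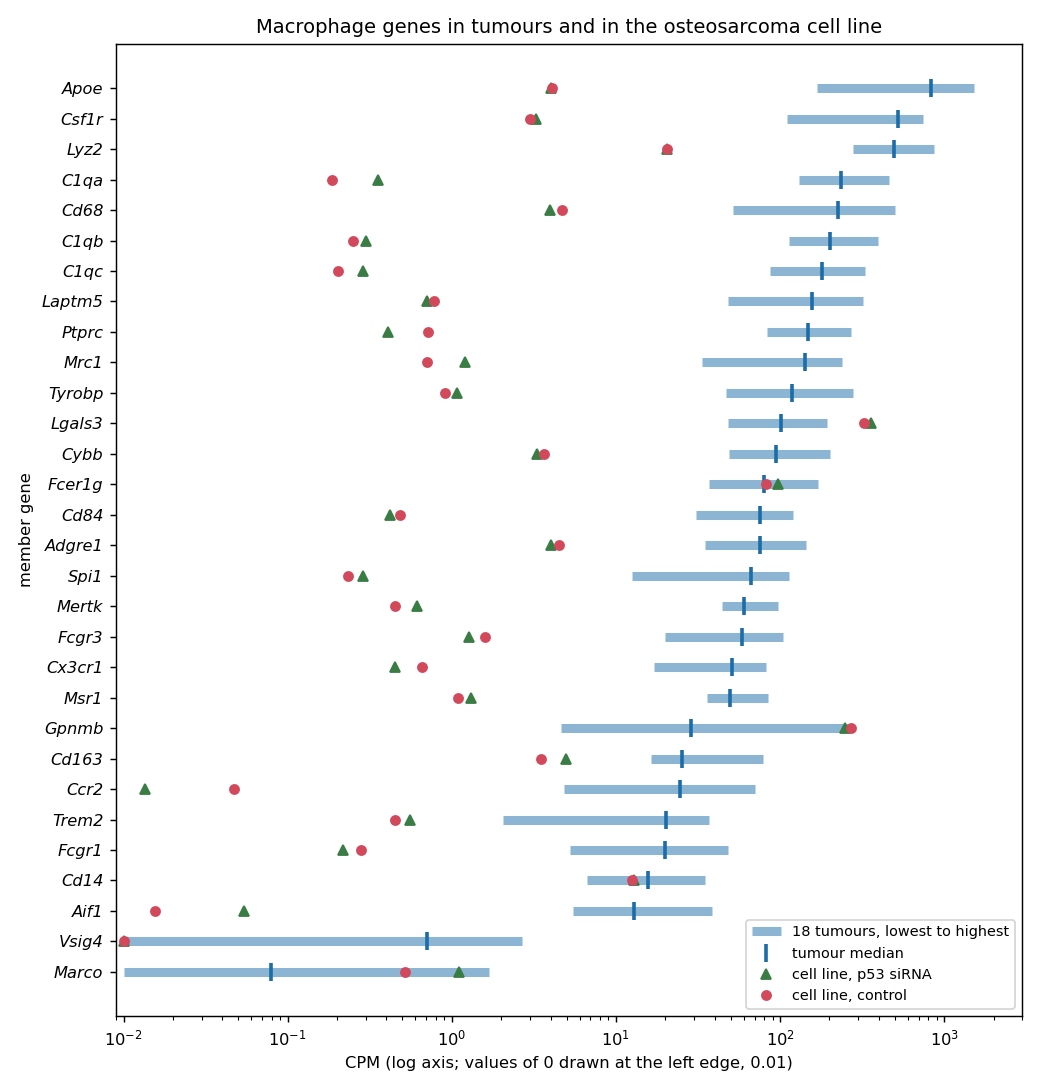
Level of each of the 30 macrophage genes in CPM (horizontal log axis) in the 18 tumours (blue bar from lowest to highest, tick at the median), in the siRNA library (green triangle) and in the control library (red circle) of the cell line; values of 0 are drawn at 0.01. For most genes the line lies far left of the tumours, while Gpnmb and Lgals3 lie at their right end or beyond.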

How the data were processed

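RNA sequencing measured 18 tumours and 2 libraries of a cell line. The deposited table holds raw counts per gene, which the authors made from reads aligned to GRCm38 with STAR 2.6.0b, per the submitters' processing notes. The counting program, its annotation, its strand setting and sequencing batches are not given in the sources used here. The authors' notes also name DESeq2, but no normalized table of theirs was used. Symbols, exon lengths and positions came from GENCODE vM21 and matched 49326 of 49585 gene IDs.

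The macrophage genes and the lists were chosen with earlier results of these data known. Groups follow the labels. Counts of the tumours went through edgeR 4.0.16 (R 4.3.3): filterByExpr (minimum count 10, minimum total count 15), TMM scaling and a single quasi-likelihood fit, each genotype having its own mean, over all 18 tumours, with 14 residual degrees of freedom. It gave 7 contrasts and a test of any difference, adjusted by Benjamini-Hochberg over 20616 genes at 0.05. The SE is the log2 fold divided by the square root of F. CPM uses the library total, and log2 CPM a prior count of 2. Correlations and their permutations used numpy 2.4.6, with ranks from scipy 1.17.1. The pipeline was tested on simulated data.

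Genes are named by rule: every-library values for the 3 highest members by mean CPM, for 10 members chosen by role and for any that passed, folds for the 3 lowest p-values per contrast, and the lowest p of each list. Spi1 in R172H and R270H tumours, Laptm5 and Aif1 are given in more detail because of their values. Alternatives were DESeq2 1.42.0, its size factors in edgeR, limma 3.58.1 voom with sample weights, no low-count filter, only the groups compared, leaving out p53 het 3 and 4 or each library, and the kind of title as a covariate. Leaving out the 3 libraries lowest in osteoclast markers, and the alternatives for list genes, were chosen after seeing the data. Protein sequences are not shown here, and 2 results are not reported here.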

Additional observations from a re-analysis of the deposited data

Results flagged for a closer look

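Within genotypes of 4 or more tumours, single tumours lay far from the others for 10 macrophage genes. Of 90 groups examined 11 met this. The rule flags about 5% of groups by chance when levels are normally distributed and groups are independent. That need not hold for CPM of genes that vary together. The share over all genes was not computed, so the 11 are not read as an excess. In R270H 4, Laptm5 (48.2 CPM, next 114 CPM) and Tyrobp (47.9 CPM, next 142 CPM) were far below the other R270H tumours and Gpnmb (126 CPM, next 31.2 CPM) far above them. In p53 het 2, the level was far above the other p53 het tumours for C1qa (446 CPM, next 243 CPM), C1qb (398 CPM, next 221 CPM), Cd163 (37.8 CPM, next 24.7 CPM), Vsig4 (2.69 CPM, next 0.753 CPM) and Gpnmb (260 CPM, next 21.0 CPM). Aif1 was far above the rest in p53 het 3 (35.6 CPM, next 16.3 CPM), Marco in p53 het 4 (0.308 CPM, next 0.0736 CPM) and Fcgr1 in R172H 3 (44.9 CPM, next 19.9 CPM).

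Relative to p53 het, Cd68 was lower in R270H than in R172H tumours. The test of that difference is the direct contrast, with a log2 fold of -1.45 (edgeR adjusted p = 0.0444), and all 5 R270H tumours lay below all 6 R172H tumours. The call was lost in 11 of 18 fits that left out a library, and with the kind of title as a covariate the log2 fold was -0.90 (adjusted p = 0.751).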

How the results depend on the processing

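No paired analysis was possible because the labels number no replicates. In R172H, R270H and the missense mean against p53 het, the number of macrophage genes that passed was 0 under every alternative run. DESeq2 called 1 in R245W against p53 het (Apoe), 1 in R245W against R270H (Aif1), 2 in R270H against R172H (Cd68 and Spi1) and 3 for any difference. Limma voom called 1 in R245W against R172H and 1 in R245W against R270H (Apoe in both), 3 in R270H against R172H (Cd68, Spi1 and Laptm5) and 1 for any difference (Apoe). In R270H against R172H, edgeR called 2 (Cd68 and Spi1) in a fit of only those groups, without p53 het 3 and 4, and without the 3 libraries lowest in osteoclast markers. The last also called 1 (Spi1) for any difference. It called 0 with no low-count filter (Cd68 adjusted p = 0.0599) and 0 with the kind of title as a covariate. Leaving out single libraries gave 0 to 2. Cd68 no longer passed without R172H 1 (adjusted p = 0.0785), 2 (0.0657), 3 (0.0764), 4 (0.0808), 5 (0.0536) or 6 (0.0565), R245W 3 (0.0530), or R270H 1 (0.0760), 2 (0.0762), 4 (0.0904) or 5 (0.0859). The causes were not tested.

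Over all genes the number that passed ran over the alternatives from 0 to 308 for R172H against p53 het, 4 to 376 for R245W, 0 to 329 for R270H and 0 to 130 for the missense mean. It ran from 14 to 353 for R245W against R172H, 8 to 1203 for R245W against R270H, 1 to 2294 for R270H against R172H and 19 to 2519 for any difference.

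For named pairs, r of Csf1r with Csf1 no longer passed without the 2 farthest libraries (0.45) or in titles with a serial number (0.53). The sign turned for Apoe with Csf1r (0.17 without the 2 farthest and 0.49 in titles without a serial number), for Cd163 with Mrc1 (0.10 in titles with a serial number and 0.30 in the others), for Csf1r with Adgre1 (0.07 in titles without one), and for Fcer1g with osteoclast markers (-0.18 without the 3 libraries). Ptprc with Laptm5 passed in titles with a serial number (0.77), and Lgals3 with Csf1r passed on log2 CPM without TMM (-0.58). The cause was not tested. At 20.1 to 29.2 M counts (megacounts) per tumour, depth limits Marco and Vsig4, and 3 to 6 tumours per genotype limit the rest.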

Other observations

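Cd68 lies at chr11:69664213-69666153 in GRCm38, 72340 bases from Trp53, the gene whose alleles define the genotypes. Its neighbours were looked up after the fold of Cd68 had been seen. Of 12 other protein-coding genes tested within 100 kb of Trp53, 0 passed lower and 1 passed higher in R270H against R172H. That gene was Eif4a1, an RNA helicase of translation initiation, with a log2 fold of 1.24 ± 0.30 (edgeR adjusted p = 0.0264). The log2 folds of the 12 ran from -1.23 to 1.24, and 5 were below 0. The lowest were those of Tnfsfm13 (-1.23 ± 0.42, edgeR adjusted p = 0.0945) and Tnfsf12 (-1.15 ± 0.34, edgeR adjusted p = 0.0542).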
